A study of Mus musculus with 8 samples.

Results

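Selectins and vascular adhesion molecules, 9 genes in all, were followed across the fractions of mouse tumors separated on magnetic columns. The set was chosen by gene family: the selectin genes Selp and Sele, the selectin ligand gene Selplg, the immunoglobulin-type adhesion genes Icam1, Icam2, Vcam1 and Pecam1, the VE-cadherin gene Cdh5, and the endothelial sialomucin gene Emcn. These are 9 of the 35975 genes with summed values. The set was selected with results of this contrast already known, so the fold changes and adjusted p-values of the 9 genes describe the fit and are no independent support for it. Of the 9 genes, 4 are restricted to endothelium in this grouping (Selp, which platelets also carry, Sele, Cdh5 and Emcn), 4 are shared by endothelium and other cells (Icam1, Icam2, Vcam1 and Pecam1), and 1 is a leukocyte gene (Selplg).

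The samples were digests of subcutaneous fibrosarcomas of syngeneic cells in WT C57BL/6 mice, lysed for red cells and separated into an iron positive eluate held by the column and an iron negative flowthrough. Bulk RNA-seq gave 4 libraries per fraction, and the titles tag them as 3L, 3R, 4R or 5L, every tag being used in the eluate and in the flowthrough. All 8 libraries come from the same tumor tissue and genotype and carry no further treatment in the labels, which give no age, no antibody sort and no statement that tags are separate animals. The p-values therefore measure the spread between these samples, which may be technical.

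Leukocytes leave the blood in steps. P-selectin and E-selectin on activated venular endothelium catch flowing leukocytes through glycosylated ligands such as PSGL-1, the product of Selplg, and integrins then bind ICAM-1, ICAM-2 and VCAM-1 before cells pass junctions held by VE-cadherin and PECAM-1. Endomucin is a sialomucin of venous and capillary endothelium that limits leukocyte contact, and ICAM-1 and VCAM-1 are also made by activated macrophages and stromal cells.

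Regulatory sequence was available in RefSeq (GRCm38.p6) for 4 of the 9 genes, and the 250 bases upstream of each start are shown because these genes fall on both sides of the comparison: Sele, Selp and Emcn were among the genes higher in the iron positive libraries, and Icam1 was not. Each runs 5′ to 3′ on the plus strand of the genome, the strand of all 4 genes, at chr1:164047984-164048233 for Sele, chr1:164115014-164115263 for Selp, chr3:137340828-137341077 for Emcn and chr9:21015690-21015939 for Icam1. RefSeq starts differ from the GENCODE starts given below for Emcn, whose last window bases lie inside the GENCODE model, and for Icam1, whose GENCODE model starts further downstream. Capitals mark matches, on either strand, to a kappa B-type motif (GGGNNNNTCC), to the ETS-type cores AGGAAG and CCGGAA, and to the TATA box TATAAA. No marked matches overlap. Only these exact patterns are marked, so sites of other forms would stay in lower case.
Sele: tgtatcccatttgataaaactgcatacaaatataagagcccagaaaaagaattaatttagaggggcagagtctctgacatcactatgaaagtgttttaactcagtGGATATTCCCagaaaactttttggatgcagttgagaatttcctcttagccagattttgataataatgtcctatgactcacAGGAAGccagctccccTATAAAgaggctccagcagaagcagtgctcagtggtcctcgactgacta
Selp: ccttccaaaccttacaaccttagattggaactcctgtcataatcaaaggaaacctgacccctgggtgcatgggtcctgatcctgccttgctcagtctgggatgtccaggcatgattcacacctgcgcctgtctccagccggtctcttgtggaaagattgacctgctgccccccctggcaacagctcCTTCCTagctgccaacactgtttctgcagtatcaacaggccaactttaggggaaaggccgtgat
Emcn: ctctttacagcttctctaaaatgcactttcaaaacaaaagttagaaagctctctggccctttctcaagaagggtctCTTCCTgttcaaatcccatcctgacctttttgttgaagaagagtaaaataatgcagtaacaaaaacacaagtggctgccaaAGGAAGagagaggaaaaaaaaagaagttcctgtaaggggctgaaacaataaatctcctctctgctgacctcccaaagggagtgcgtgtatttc
Icam1: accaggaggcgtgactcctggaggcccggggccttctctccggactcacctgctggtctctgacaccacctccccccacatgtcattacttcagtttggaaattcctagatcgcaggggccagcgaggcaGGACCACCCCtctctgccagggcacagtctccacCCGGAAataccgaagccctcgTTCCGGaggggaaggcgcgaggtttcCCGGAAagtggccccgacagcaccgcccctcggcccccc

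Counted from the RefSeq start of each gene, the base after its window, the kappa B-type match lies at -145 to -136 in Sele and at -120 to -111 in Icam1. AGGAAG has a match at -65 to -60 in Sele, at -64 to -59 on the other strand in Selp, and at -174 to -169 and -93 to -88 in Emcn. The Icam1 window holds 3 CCGGAA matches, the nearest at -39 to -34, and the Sele window holds the TATA box at -49 to -44. Of 32851 promoter windows of the same length, 16.5% hold the kappa B-type motif, 29.5% AGGAAG, 12% CCGGAA and 12.4% TATAAA. The matches describe these letters only and were not set against the expression values by any test.

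Positions are those of the mm10 (GRCm38) genome. Sele (chromosome 1, 164048234 to 164057677) and Selp (164115264 to 164150026) lie on the same strand of that chromosome. Icam2 (chromosome 11, 106377656 to 106388075) and Pecam1 (106654217 to 106750628) share a stretch of chromosome 11, and Icam1 (chromosome 9, 21015985 to 21028817) is followed by Icam4 and Icam5. Vcam1 (116109949 to 116129688) and Emcn (137341067 to 137432185) lie on chromosome 3, Cdh5 (104101625 to 104144511) on chromosome 8 and Selplg (113818536 to 113832644) on chromosome 5. Icam4 and Icam5 did not have the level of Icam1 and stayed below 0.1 CPM (read counts relative to the scaled library total) on average in both fractions.

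Library totals were 19.04 to 24.31 M estimated counts. Macrophage genes dominated both fractions, with 11 listed markers summing to 27643 to 29913 CPM in the iron negative and 20946 to 27919 in the iron positive libraries. The 12 endothelial markers summed to 43.0 to 71.6 and 149 to 1109 CPM, and all 12 were higher in the iron positive libraries, with Robo4 (5.58 ± 0.94 SE; adjusted p = 0.0173) and Vwf having the smallest adjusted p. In bulk RNA, fewer cells of a type and less RNA per cell cannot be told apart. Scaling to macrophage genes instead of all genes moved the median log2 fold change of all genes by 0.178. It left 18 genes lower in the iron positive libraries against 695 without it, so few genes of any kind stay lower under it. Tests named below are edgeR's quasi-likelihood test with adjustment over all 13343 genes tested unless another is named.

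All 9 genes were tested. In the iron positive libraries 6 were higher (Selp, Sele, Cdh5, Emcn, Pecam1 and Icam2), 1 was lower (Vcam1), and 2 did not pass adjusted p under 0.05 (Icam1 and Selplg). With the tag as a replicate block, Icam1 and Selplg passed as well, so that 6 genes were higher and 3 lower. Over all genes tested, 8.49% were higher and 5.21% lower by the same rule. Nothing is read from the difference to these shares, since the set was chosen with this contrast known. Whether the groups overlapped is given below for each gene as a description. It was not counted over all genes tested, so nothing is read from it either. Selp, Sele and Emcn passed the filter on low counts only through the iron positive libraries. The median log2 fold change was 2.22 over the 9 genes and -0.01 over all genes tested.

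**Figure D1:**
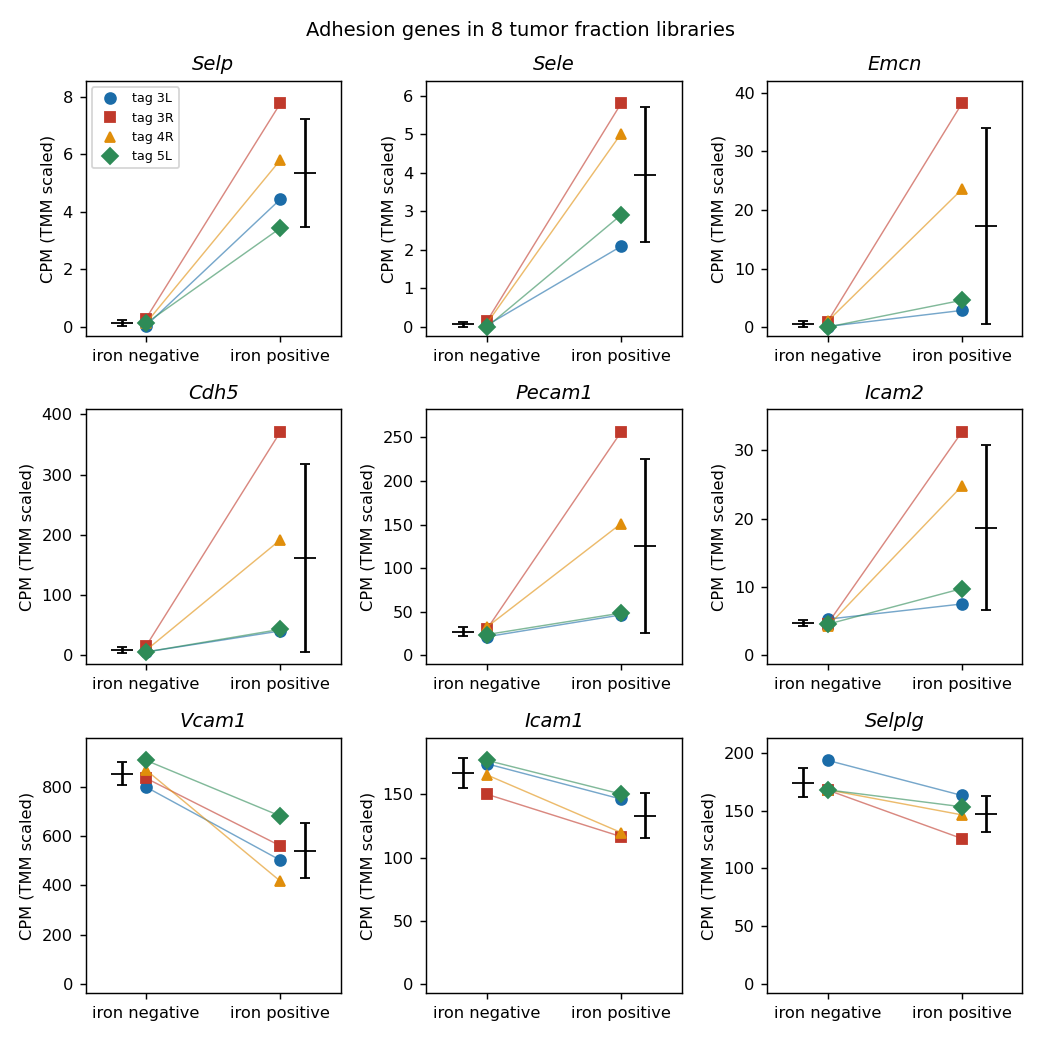
Level of each gene in CPM (linear axis) in the iron negative and iron positive libraries, with symbols and colors for the tags, lines joining the same tag, and a bar for the mean and SD of 4 libraries. In the upper 6 panels the iron positive libraries 3R and 4R are the highest, and for Selp and Sele the libraries 3L and 5L also lie well above the iron negative ones.

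Selp encodes P-selectin, stored in endothelial Weibel-Palade bodies and platelet granules and brought to the surface on activation. In the iron negative libraries Selp had 0.0442 (3L), 0.292 (3R), 0.134 (4R) and 0.130 (5L) CPM, from 1, 6, 3 and 3 counts. The iron positive libraries had 4.44, 7.76, 5.80 and 3.43 CPM in the same order, from 89, 154, 133 and 78 counts. The groups did not overlap, and the lowest iron positive library, 5L, lay far above the highest iron negative one, 3R. The log2 fold change was 5.12 ± 0.47 (SE; adjusted p = 0.0118). The ratio of the pooled CPM was 36.1, with a 95% interval of 20.9 to 68.4 that covers counting error only.

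Sele encodes E-selectin, which endothelium makes anew when cytokines activate it. Its iron negative values were 0.0442 (3L), 0.146 (3R), 0.0896 (4R) and 0 (5L) CPM, from 1, 3, 2 and 0 counts. A count of 0 allows up to 3 counts in that library. The iron positive values were 2.09, 5.80, 5.01 and 2.91 CPM, from 42, 115, 115 and 66 counts. As with Selp, the groups did not overlap, and 3R and 4R were the high iron positive libraries. The log2 fold change was 5.74 ± 0.62 (SE; adjusted p = 0.0118), and the pooled ratio was 58.3 with a counting interval of 26.5 to 160.

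Cdh5 encodes VE-cadherin, the cadherin of endothelial adherens junctions. It had 5.83 (3L), 15.5 (3R), 8.51 (4R) and 5.83 (5L) CPM in the iron negative and 40.7, 371, 192 and 43.4 CPM in the iron positive libraries. The groups did not overlap, but the iron positive libraries formed a high pair, 3R and 4R, and a low pair, 3L and 5L. The fraction means were 8.90 ± 4.54 and 162 ± 156 CPM (SD, n = 4). The fitted log2 fold change was 4.19 ± 0.81 (SE; adjusted p = 0.0185).

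Emcn encodes endomucin. It had 0.0884 (3L), 0.926 (3R), 0.985 (4R) and 0 (5L) CPM in the iron negative libraries, from 2, 19, 22 and 0 counts, and 2.84, 38.2, 23.5 and 4.58 CPM in the iron positive ones. Its groups did not overlap, and the tags 3R and 4R were the high ones in both fractions. The log2 fold change was 5.12 ± 1.14 (SE; adjusted p = 0.0257), with the widest error of the 9 genes, and the pooled ratio was 35.1 with a counting interval of 25.9 to 48.7.

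Pecam1 and Icam2 encode PECAM-1 and ICAM-2, which endothelium shares with platelets and many leukocytes. Pecam1 had 21.5 (3L), 30.1 (3R), 32.5 (4R) and 24 (5L) CPM in the iron negative and 46.6, 256, 151 and 48.6 CPM in the iron positive libraries. Icam2 had 5.30, 4.63, 4.25 and 4.57 CPM in the iron negative and 7.53, 32.7, 24.8 and 9.77 CPM in the iron positive ones. Neither gene's groups overlapped, and both stood at clear levels in the iron negative fraction, with a low and a high pair of iron positive libraries as for Cdh5. The log2 fold changes were 2.22 ± 0.55 for Pecam1 (SE; adjusted p = 0.0332) and 1.99 ± 0.45 for Icam2 (SE; adjusted p = 0.026).

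Vcam1 encodes VCAM-1, which binds the integrin of Itga4 and Itgb1 on leukocytes. Its values ran the other way, with 800 (3L), 836 (3R), 869 (4R) and 908 (5L) CPM in the iron negative and 503, 561, 417 and 682 CPM in the iron positive libraries. The groups did not overlap, and 4R was the lowest iron positive library. The means were 853 ± 46.3 and 541 ± 111 CPM (SD, n = 4). The fitted log2 fold change was -0.66 ± 0.14 (SE; adjusted p = 0.0223). When libraries were scaled to macrophage genes the value was -0.48 and no longer passed (adjusted p = 0.1).

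Icam1 encodes ICAM-1, the receptor of the leukocyte integrin LFA-1. It had 174 (3L), 150 (3R), 165 (4R) and 177 (5L) CPM in the iron negative and 146, 117, 120 and 150 CPM in the iron positive libraries. The groups just overlapped, since iron positive 5L (150.3) lay level with iron negative 3R (150.2). The log2 fold change was -0.32 ± 0.10 (SE; adjusted p = 0.0655). It passed with the tag as a replicate block, at -0.33 (adjusted p = 0.0115), and all 4 tags were lower in the iron positive library.

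Selplg encodes PSGL-1, the leukocyte ligand of the selectins. It had 193 (3L), 168 (3R), 168 (4R) and 168 (5L) CPM in the iron negative and 163, 126, 146 and 153 CPM in the iron positive libraries. The groups did not overlap, the difference was small, and 3L was the highest library of each fraction. The log2 fold change was -0.24 ± 0.09 (SE; adjusted p = 0.102), and with the tag as a replicate block it was -0.25 and passed (adjusted p = 0.0323). With macrophage scaling the values were -0.08 for Selplg (adjusted p = 0.519) and -0.16 for Icam1 (adjusted p = 0.288).

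**Figure D2:**
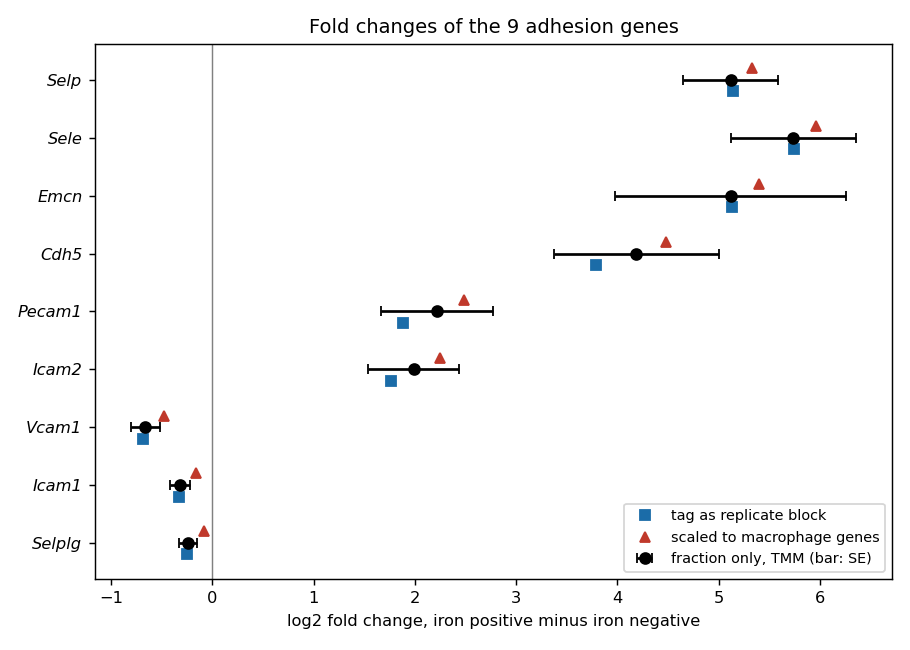
Log2 fold change, iron positive minus iron negative, of each gene: black circles with SE bars for the fit on fraction alone, blue squares with the tag as a block, and red triangles scaled to macrophage genes. The 6 upper genes lie between 1.99 and 5.74 in the fit on fraction alone, and Vcam1, Icam1 and Selplg between -0.66 and -0.24.

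Calls depended on single iron negative libraries. When the iron negative library 3L, 3R or 4R was left out, no gene in the whole table passed, with smallest adjusted p of 0.0626, 0.0503 and 0.0634, although 6 of the 9 genes were then higher at an unadjusted p under 0.05 and 2 or 3 lower. Without iron negative 5L, 26 of all genes were higher and 12 lower, and of the 9 genes only Selp and Sele passed. Without iron positive 4R, 3 of the 9 passed as higher (Selp, Sele and Cdh5) and Vcam1 passed as lower (adjusted p = 0.0434). Directions did not change: over 20 alternatives for each gene, none of 180 fold changes reversed. The alternatives refit the same 8 libraries, and each gene went the same way in all 4 tags, so a reversal was hardly possible. Sizes did move with 1 library. Without iron positive 3R the log2 fold change was 3.38 for Cdh5, 4.38 for Emcn and 1.61 for Pecam1, and without iron negative 4R it was 5.71 for Emcn. With only tags 3L and 5L it was 2.84 for Cdh5, 1.06 for Pecam1 and 0.80 for Icam2, and Emcn (6.22) and Sele (6.50) were larger. With only tags 3R and 4R Icam2 had 2.67.

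Endothelium-restricted genes were set against the leukocyte ligand as the mean log2 TPM of Selp, Sele, Cdh5 and Emcn minus the log2 TPM of Selplg, with 0.1 TPM added to each gene. TPM is a share of transcripts scaled by length, on which levels of different genes can be compared. The index was -8.57 (3L), -7.57 (3R), -7.74 (4R) and -8.65 (5L) in the iron negative and -5.30, -2.62, -3.31 and -5.00 in the iron positive libraries. It was below 0 in every library, and the groups did not overlap. The index is a mean over 4 genes, and Cdh5 alone exceeded Selplg in iron positive 3R (132.3 against 105.6 TPM). The means were -8.13 ± 0.56 and -4.06 ± 1.30 (SD, n = 4), a difference of 4.07 log2 units that is given as a description.

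By TPM, Vcam1 was the most abundant of the 9 in the iron negative fraction (344 ± 25.7; SD, n = 4), before Selplg (136 ± 6.89) and Icam1 (90.0 ± 5.65). Pecam1 (11.3 ± 2.73 TPM), Icam2 (8.90 ± 0.644) and Cdh5 (5.80 ± 0.996) followed, and Emcn (0.465), Selp (0.101) and Sele (0.0327) were at the bottom. Ranges of neighbours overlapped between Pecam1 and Icam2, Emcn and Selp, and Selp and Sele, and were separate elsewhere in that order. In the iron positive fraction Vcam1 (225 ± 43.6 TPM), Selplg (120 ± 9.35) and Icam1 (74.4 ± 7.21) again stood first and apart from each other. From Icam1 downward every neighbour overlapped the one above: Cdh5 (58.1 ± 56.0 TPM), Pecam1 (54.5 ± 44.4), Icam2 (29.0 ± 16), Emcn (17.3 ± 17.2), Selp (3.95 ± 1.89) and Sele (1.92 ± 0.911).

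Transcript models bear on some of these levels. The full-length Cdh5-201 (12 exons, 3995 bases) held 24.4% to 88.8% of Cdh5 TPM in the iron negative and 91.5% to 98.1% in the iron positive libraries. The rest lay on Cdh5-202, a model of 346 bases with 1 to 9 estimated counts per iron negative library, which weighs heavily per length. Cdh5-201 alone averaged 2.86 ± 1.59 and 56.3 ± 55.3 TPM (SD, n = 4). The 16-exon model Selp-205 held 29.4% to 55.3% of Selp TPM in the iron positive libraries, at 1.35 (3L), 2.23 (3R), 1.62 (4R) and 1.09 (5L) TPM.

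Icam2 divided by model. The longer Icam2-201 (1282 bases) had 4.56 (3L), 4.46 (3R), 3.27 (4R) and 4.21 (5L) TPM in the iron negative and 6.65, 39.2, 29.1 and 9.82 in the iron positive libraries. The shorter Icam2-203 (574 bases) averaged 4.21 ± 1.30 and 6.25 ± 0.834 TPM (SD, n = 4), and 3R was its lowest iron positive library at 5.31 TPM. Vcam1-201, of 3469 bases, held a median of 85.9% of Vcam1 TPM in both fractions, and the single models Selplg-201 and Icam1-201 held at least 94.3% of their gene in every library. Pecam1 counts were spread over Pecam1-203, Pecam1-202 and Pecam1-204, with Pecam1-203 at a median of 50.2% in the iron negative and 45.5% in the iron positive libraries. The division of reads between models of 1 gene is an estimate of the authors' software.

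The spread within the iron positive fraction was not used to choose the genes, and it was smaller for the selectins than for the other endothelial genes of the set. The highest iron positive library exceeded the lowest 13.4-fold for Emcn, 9.12-fold for Cdh5, 5.51-fold for Pecam1 and 4.34-fold for Icam2. For Selp it did so 2.26-fold and for Sele 2.77-fold, while the summed endothelial markers had a ratio of 7.46. Vcam1 (1.63-fold), Selplg (1.30-fold) and Icam1 (1.29-fold) varied little. Markers of other tumor cells moved between the fractions with the endothelial genes and varied in the same libraries. Of 8 pericyte and smooth muscle markers 6 were higher (median log2 fold change 5.30), among them Des (5.30 ± 0.62 SE; adjusted p = 0.0118) and Myh11 (5.30 ± 0.86 SE; adjusted p = 0.0173). Their sum was 22.8 to 45.4 CPM in the iron negative libraries and 67.2 (3L), 473 (3R), 354 (4R) and 120 (5L) CPM in the iron positive ones. Of 7 tested fibroblast and fibrosarcoma markers 5 were higher (median 2.87), among them Sparc (3.99 ± 0.85 SE; adjusted p = 0.0226) and Postn (3.06 ± 0.75 SE; adjusted p = 0.0331). That sum was 116 to 373 CPM in the iron negative and 480, 4595, 1684 and 526 CPM in the iron positive libraries. The part of these cells in the result was not tested.

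**Figure D3:**
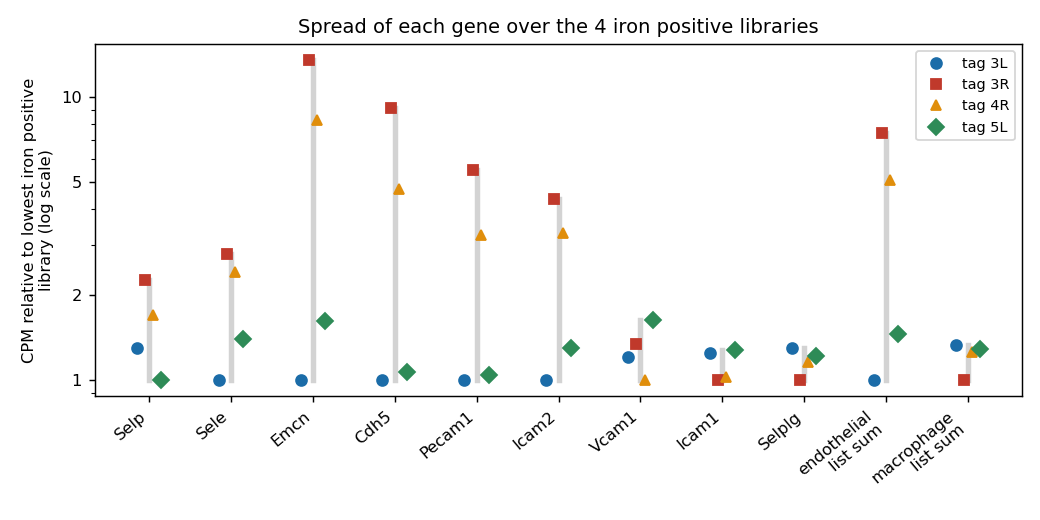
CPM of each gene and of the summed endothelial and macrophage markers in the 4 iron positive libraries, divided by the lowest of them (log axis), with symbols for tags. Emcn and Cdh5 reach 13.4 and 9.12 in tag 3R, whereas Selp and Sele stay at or below 2.77.

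Relative to VE-cadherin transcripts, the selectins, Pecam1 and Icam2 were more abundant in iron positive 3L and 5L than in 3R and 4R. In that fraction 3L and 5L were the libraries with low endothelial levels. Selp had 10.9 counts per 100 Cdh5 counts in iron positive 3L (95% exact interval 8.66 to 13.6), 2.09 in 3R (1.77 to 2.46), 3.02 in 4R (2.52 to 3.59) and 7.92 in 5L (6.21 to 9.98). Sele had 5.15 (3.68 to 7.02), 1.56 (1.29 to 1.88), 2.61 (2.15 to 3.15) and 6.70 (5.14 to 8.60) in the same order. For both genes the intervals of 3L and 5L were separate from those of 3R and 4R. The same held for Pecam1, with 114 (3L), 69.1 (3R), 78.9 (4R) and 112 (5L). It also held for Icam2, with 18.5, 8.81, 12.9 and 22.5, so the order was not particular to the selectins. Emcn had 6.99 (5.24 to 9.14), 10.3 (9.55 to 11.1), 12.3 (11.2 to 13.4) and 10.6 (8.54 to 12.9), and so was lowest in 3L. For the selectins the iron negative libraries, where endothelial levels were lower still, did not continue this order. Those libraries had 0.758 to 2.24 Selp and 0 to 1.05 Sele counts per 100 Cdh5 counts, from at most 6 selectin counts. For Pecam1 and Icam2 the iron negative values were higher still, at 195 to 412 and 30 to 90.9 counts per 100 Cdh5 counts. The intervals cover counting error only, with 1 library per tag.

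Pecam1 and Icam2 are also present in the iron negative fraction, so the iron positive excess, the CPM difference within a tag, was taken for each gene per 100 CPM of Cdh5 excess. For Pecam1 this was 71.8 (3L), 63.7 (3R), 64.8 (4R) and 65.7 (5L), or 66.5 ± 3.63 (SD, n = 4 tags). The near-constant share held while the Cdh5 excess itself went from 34.8 CPM (3L) to 355 CPM (3R). It depends on the subtraction, since the Pecam1 counts per 100 Cdh5 counts given above differed by tag. The subtraction takes the iron negative CPM as the background of the iron positive library with the same tag, which was not tested. Emcn had 7.90, 10.5, 12.3 and 12.2, and Icam2 6.38, 7.89, 11.2 and 13.9. Selp had 12.6, 2.10, 3.09 and 8.80, a 6.00-fold range, and Sele 5.88, 1.59, 2.69 and 7.74, a 4.87-fold range. This measure was chosen after the values were seen.

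**Figure D4:**
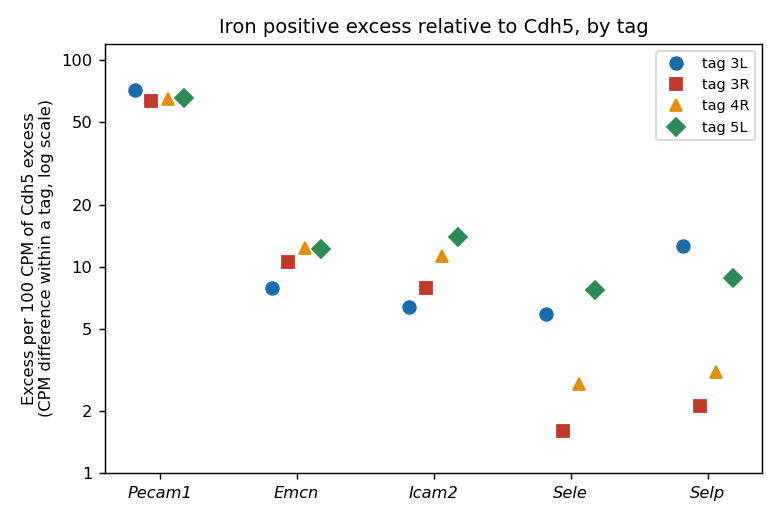
Iron positive excess of 5 genes per 100 CPM of Cdh5 excess, by tag (log axis). The Pecam1 points lie together between 63.7 and 71.8, and for Selp and Sele the tags 3L and 5L lie above 3R and 4R.

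Because platelets carry P-selectin, platelet transcripts were read in the same libraries. Ppbp, a platelet chemokine gene, had 16 (3L), 5.85 (3R), 15.4 (4R) and 9.44 (5L) CPM in the iron negative and 361, 18.6, 314 and 69.2 CPM in the iron positive libraries. It was highest in 3L and 4R, while Selp was highest in 3R by CPM and in 3L per Cdh5 count. Of 12 platelet and megakaryocyte genes, 5 were tested and 1, Ppbp, passed in the fit on fraction alone (log2 fold change 4.03 ± 0.88 SE; adjusted p = 0.0244). The summed list ran from 402 to 492 CPM in the iron negative and from 448 to 1578 CPM in the iron positive libraries, almost all of it Ppbp and Pf4. Pf4, another platelet chemokine gene, averaged 438 and 864 CPM and was higher in the iron positive library of all 4 tags (0.98 ± 0.30 SE; adjusted p = 0.0635). It passed with the tag as a replicate block, at 0.86 (adjusted p = 0.0324), and with macrophage scaling, at 1.11 (adjusted p = 0.0215). Itga2b had 0.55 (adjusted p = 0.271), Treml1 0.46 (adjusted p = 0.415) and Gp1ba -0.39 (adjusted p = 0.362). Among receptor genes not tested, Gp9, Gp6 and Gp5 stayed below 0.2 CPM in every library, and Gp1bb reached 0.756 CPM in iron positive 3R. Gp9, from at most 3 counts, had 0 to 0.0448 CPM in the iron negative and 0.088 to 0.131 CPM in the iron positive libraries. The part of platelets in the Selp values was not tested.

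Against macrophage transcripts the leukocyte gene moved little. Selplg had 6.47 (3L), 6.07 (3R), 6.04 (4R) and 5.80 (5L) CPM per 1000 CPM of the 11 macrophage markers in the iron negative and 5.84, 6.00, 5.57 and 5.66 in the iron positive libraries, and the groups overlapped. Icam1 had 5.83 ± 0.290 and 5.23 ± 0.470 (SD, n = 4). Vcam1 had 29.9 ± 2.17 and 21.5 ± 5.32, with 26.8 in iron positive 3R against 26.7 in iron negative 3L, so its groups overlapped on this scale. Of the macrophage list itself, 4 of 11 genes were lower, among them Csf1r (-0.61 ± 0.11 SE; adjusted p = 0.0177) and Adgre1 (-0.43 ± 0.08 SE; adjusted p = 0.0184). Macrophage scaling uses the sum of these same 11 genes, so it cannot show whether the list as a whole was lower. No single gene of it passed as lower under that scaling, with Csf1r at -0.43 (adjusted p = 0.0538).

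Genes with the most similar profile over the 8 libraries were found as those with the smallest SD of the log2 ratio to a given gene, among 10155 genes with a mean of at least 5 CPM. For Cdh5 these were Ptprg (SD 0.15), Sparc (0.189), Unc5b (0.195), Vwf (0.212) and Prss23 (0.237). The other endothelial genes of the set lay further off, at 1.06 for Pecam1, 1.10 for Selp, 1.21 for Icam2, 1.32 for Sele and 1.74 for Emcn. Selp and Sele, with means of 2.75 and 2.01 CPM, lie below the limit set for the neighbours. Selp, Sele and Emcn had 0 to 22 counts in the iron negative libraries, so counting error adds to their SD. For Selplg the nearest were Atp6ap2 (0.018), Bcl2a1b (0.031), Npc2 (0.036), Cep78 (0.042) and Tmem135 (0.043), while Icam1 had 0.111 and Vcam1 0.34. All points share libraries and depth, and the measure is a description.

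Other members of these families were read from a list. Of 11 other selectin, ICAM and sialomucin genes, 6 were tested, 3 were higher and none was lower, with a median log2 fold change of 2.48. Those 3 were Podxl (5.67 ± 1.10 SE; adjusted p = 0.0186), the sialomucin podocalyxin, Mcam (4.69 ± 0.94 SE; adjusted p = 0.0199), an endothelial and pericyte adhesion gene, and Cd34 (3.76 ± 0.81 SE; adjusted p = 0.0236). Glycam1, a sialomucin of high endothelial venules, was listed at 0 in all iron negative libraries and at 0.349, 13.7, 0.0872 and 0 CPM in iron positive 3L, 3R, 4R and 5L, so it rested on 1 library and was not tested. Madcam1, the mucosal addressin, was at or near 0 in all.

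Among 12 tested leukocyte ligands and integrin counter-receptors, 1 was higher and 5 were lower, with a median log2 fold change of -0.10. Itgal, the alpha chain of LFA-1 that binds ICAM-1, went from 296 to 331 CPM across the iron negative to 163 to 235 across the iron positive libraries (-0.65 ± 0.11 SE; adjusted p = 0.0173). Itga4, the alpha chain of the VCAM-1 receptor, had -0.37 ± 0.08 (SE; adjusted p = 0.0218). Itgax (-0.87), Spn (-0.69) and Itga9 (-0.42) were the other lower genes. Cd24a, whose product can bind P-selectin, was the higher one at 2.20 ± 0.54 (SE; adjusted p = 0.0337). None of the 5 was lower with macrophage scaling, under which 18 of all 13343 genes tested were.

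Selectin ligands need sugar and sulfate modifications, and 10 of 13 tested genes of that machinery did not pass (median -0.03). Chst2, a sulfotransferase active in high endothelial cells, was higher (3.45 ± 0.77 SE; adjusted p = 0.0256). Slc35c1, the Golgi GDP-fucose transporter, was lower at -0.31 ± 0.07 (SE; adjusted p = 0.0298), and St3gal3 at -0.34 ± 0.08 (SE; adjusted p = 0.035). With macrophage scaling neither passed, at -0.15 (adjusted p = 0.262) and -0.16 (adjusted p = 0.505), and with the tag as a replicate block 2 genes of this list were higher instead of 1. Fut7, the fucosyltransferase that completes leukocyte selectin ligands, averaged 1.27 and 0.977 CPM in the iron negative and iron positive libraries (adjusted p = 0.384).

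Junctions between endothelial cells form the last barrier to leukocytes. Of 9 tested junction and transmigration genes 4 were higher and 1 lower (median 1.15), with Esam at 5.41 ± 0.98 (SE; adjusted p = 0.0179), Jam2 at 3.90 ± 0.72 (SE; adjusted p = 0.0183) and F11r, which leukocytes and epithelium also use, at -0.53 ± 0.13 (SE; adjusted p = 0.035). F11r did not pass with macrophage scaling (-0.32; adjusted p = 0.348). Of 12 genes of the VE-cadherin complex and its regulators 6 were higher and none was lower (median 0.67). Heg1 (4.74 ± 0.80 SE; adjusted p = 0.0173) and Rasip1 (4.60 ± 0.71 SE; adjusted p = 0.0173), which stabilise endothelial junctions, had the smallest adjusted p of this list. Ptprb, the endothelial phosphatase that acts on VE-cadherin, had its largest fold change, at 5.89 ± 1.08 (SE; adjusted p = 0.0183). The catenin genes that bind the cadherin tail in many cell types did not pass, with Ctnnb1 at 0.30 (adjusted p = 0.117), Ctnna1 at 0.13 (adjusted p = 0.429) and Ctnnd1 at 0.12 (adjusted p = 0.262).

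The cytokine and NF-kappa B list, whose pathway induces Sele, Icam1 and Vcam1 in endothelium, had 2 of 13 tested genes higher and 4 lower (median -0.40). Il6 was higher at 3.10 ± 0.39 (SE; adjusted p = 0.0153), from 0.682 to 1.30 CPM across the iron negative to 4.24 to 14.5 across the iron positive libraries, and Il1r1, the IL-1 receptor, at 2.38 ± 0.59 (SE; adjusted p = 0.0346). Relb (-0.40 ± 0.09 SE; adjusted p = 0.0238) and Nfkb2 (-0.43 ± 0.10 SE; adjusted p = 0.0264) had the smallest adjusted p of the lower genes, followed by Nfkb1 and Rela. None of the 4 was lower with macrophage scaling, under which 18 of all 13343 genes tested were. With the tag as a replicate block 2 were higher and 9 were lower. Among the lower ones were Tnf (-0.66; adjusted p = 0.00388), Il1a (-0.71; adjusted p = 0.0115) and Il1b (-0.92; adjusted p = 0.0124). These cytokine genes did not pass in the fit on fraction alone or with macrophage scaling.

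Transcription factors of endothelium had 5 of 14 tested genes higher and none lower (median 0.99). Sox7 (5.35 ± 0.68 SE; adjusted p = 0.0156) and Sox17 (5.91 ± 0.91 SE; adjusted p = 0.0173) had the smallest adjusted p, while Fli1, an ETS factor that leukocytes also express, averaged 66.5 and 66.3 CPM (adjusted p = 0.971). With the tag as a replicate block 7 of these factors were higher and 2 lower. Of 4 tested venous genes 3 were higher (median 4.13): Lrg1 (5.05 ± 0.62 SE; adjusted p = 0.014), Vwf (4.30 ± 0.72 SE; adjusted p = 0.0173) and Ephb4 (3.96 ± 0.88 SE; adjusted p = 0.0257). Nr2f2, the venous identity factor, had 2.27 ± 0.71 (SE; adjusted p = 0.0671) and passed with the tag as a replicate block (2.08; adjusted p = 0.0019). Ackr1, a marker of post-capillary venules, was not tested and had 0.399 to 0.756 CPM across the iron positive libraries against 0 to 0.0487 across the iron negative ones.

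Weibel-Palade bodies store P-selectin with von Willebrand factor. Of 8 tested genes of their content and release 5 were higher and none was lower (median 1.29), among them Edn1 (3.30 ± 0.50 SE; adjusted p = 0.0173) and Plat (3.65 ± 0.62 SE; adjusted p = 0.0173). Cd63 (adjusted p = 0.446) and Rab27a (adjusted p = 0.265), which many cells use for granules, did not pass. The lists were read against 8.49% higher and 5.21% lower over all genes tested, and their medians against -0.01.

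**Figure D5:**
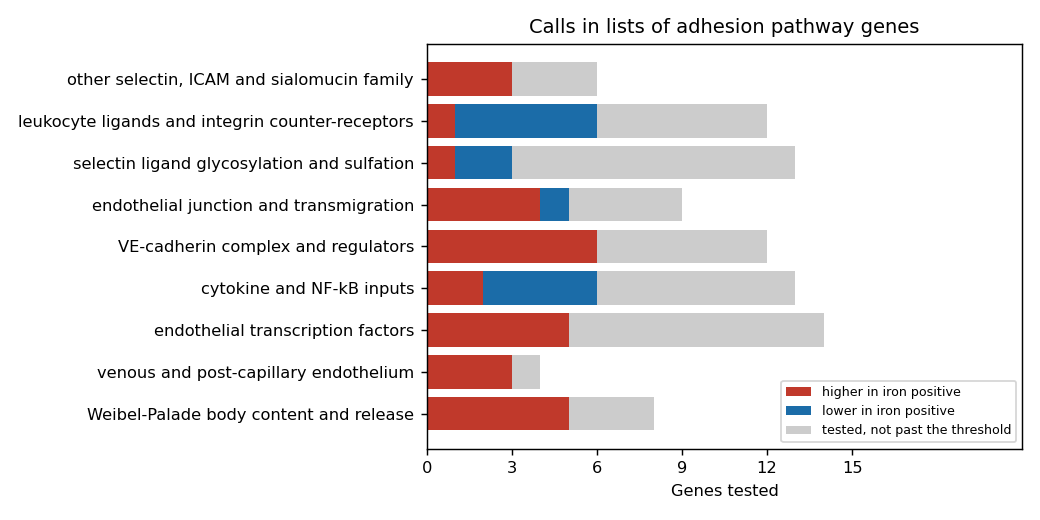
Genes tested in each of 9 lists of adhesion pathway genes (horizontal axis, number of genes), divided, in the fit on fraction alone, into higher in the iron positive libraries (red), lower (blue) and not past the threshold (grey). Lower genes occur in the leukocyte, glycosylation, junction and cytokine lists, and the other 5 lists hold none.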

How the data were processed

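The submitters' processing notes name kallisto 0.46.2 and the build mm10, without the transcript release. Per the file headers, the authors' table of each library lists estimated counts, not normalized, beside TPM values and other values (transcript length and effective length). Libraries were not pooled.

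Of 119414 transcripts, 116728 were matched to GENCODE M21 by identifier without version and summed over 35975 genes. The 2686 unmatched ones held 0.888% to 0.961% of the counts and were left out. Estimated counts were rounded for the tests and do not use strand. Antisense genes that overlap Selp, Icam1, Vcam1 and Cdh5 have no row in the tables used here. After filterByExpr, 13343 genes were TMM-scaled and tested with edgeR 4.0.16 (R 4.3.3), with fraction as the only term. A gene was called where p, adjusted by Benjamini and Hochberg's method, was under 0.05. SEs are the coefficient divided by the square root of F, which is approximate. DESeq2 1.42.0 and limma 3.58.1 gave alternatives. The edgeR steps were also run on simulated counts. Those counts had no tag effect, so the run does not cover the likeness of same-tag libraries described below.

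The 9 genes and 19 gene lists were chosen with earlier results of these data known. The text names all 9 genes, per list up to 2 called genes per direction with the smallest adjusted p, and the 5 genes most like Cdh5 and like Selplg. Other list genes (Gp9, Gp6, Gp5, Gp1ba, Gp1bb, Itga2b, Treml1, Ly6g, Csf3r, Retnlg, Cxcr2, Lyve1, Prox1, Pdpn, Ptprb, Icam4, Icam5, Cd34, Glycam1, Madcam1, Itgax, Spn, Itga9, Fut7, the catenins, Rela, Nfkb1, Tnf, Il1a, Il1b, Fli1, Ephb4, Nr2f2, Ackr1, Pf4, Cd63, Rab27a) were named after their values were seen. The symbols Cd99 and Ccl21a gave no value. Items withheld for evaluation are not reported here. The TPM index was planned with no pseudocount, but Sele and Emcn were at 0 in 1 library, so 0.1 TPM was added.

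Same-tag libraries correlated, across genes, in their deviations from the fraction means at 0.53 (3L), 0.52 (3R), 0.27 (4R) and 0.30 (5L). All lie above the limit of 0.1, so the tag, taken from the titles in the labels, was entered as a replicate block in an alternative fit. The main fit, which gave the calls, SEs and adjusted p above unless the block is named, leaves it out. Some different tags correlated nearly as well, iron positive 4R with iron negative 3R at 0.26 and iron positive 5L with iron negative 3L at 0.23. No replicate pair agreed within counting noise. Upstream sequences are from RefSeq (GRCm38.p6). Count-ratio intervals are exact at 95%.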

Additional observations from a re-analysis of the deposited data

Results flagged for a closer look

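Of 110 sets of 4 libraries of a fraction screened, 6 had 1 library far from the other 3 by Dixon's ratio at its 95% limit, which chance gives in about 1 in 20 sets. In 5 of them it was iron negative 3L: Selplg (193 CPM against 168 in the others), Atp6ap2 (327), Bcl2a1b (344), Npc2 (1079) and Tmem135 (55.9). The last 4 were picked for their likeness to Selplg, so these are not separate events. The remaining one was Prss23 in iron negative 3R (1.95 CPM), a gene picked for its likeness to Cdh5.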

How the results depend on the processing

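The fit on fraction alone gave 6 members of the set higher and 1 lower, and 1133 and 695 of all genes. With the tag as a replicate block, the paired fit, 3 of the set were lower (Vcam1, Icam1 and Selplg) and 1705 and 1253 of all genes were called; the other member calls did not change. DESeq2 called 2 of the set lower and 1701 and 1069 genes. Limma voom called 2 of the set higher and 188 and 272 genes. On log2(TPM + 1) values 2 of the set were higher and 413 and 205 genes were called, and on log2(TPM + 0.1) values 706 and 270. That pseudocount was chosen after seeing the data. Scaling by library totals left 361 genes lower (76.5% of calls higher against 62.0%), and macrophage scaling left 18 lower (98.7% higher) and 0 of the set lower. With no filter on low counts 70.0% of calls were higher. The cause was not tested, apart from fewer samples in what follows. With only tags 3L and 5L, 320 and 7 genes were called and 0 of the set were lower. With only 3R and 4R, 355 genes were lower.

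Leaving out 1 library gave 0 to 6 of the set higher, 0 to 2 lower, 0 to 1454 genes higher and 0 to 965 lower. The lowest values came without iron negative 3L, 3R or 4R, and without iron positive 4R 399 and 213 genes were called. Of 180 member fold changes under alternatives 135 kept their side of the threshold, 41 no longer passed, 4 newly passed and 0 reversed. Depth limits Selp, Sele and Emcn in the iron negative libraries, where they had 0 to 22 counts.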

Other observations

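F5, the gene next to Selp, which encodes coagulation factor V, had 0.177 (3L), 0.244 (3R), 0 (4R) and 0 (5L) CPM in the iron negative and 7.23, 0.907, 2.05 and 1.01 CPM in the iron positive libraries. It was highest in 3L, unlike Selp, which was highest in 3R. Lyve1, a gene of lymphatic endothelium and some macrophages, was likewise highest in iron positive 3L (37.1 CPM, the other 3 having 3.28 to 10.5) and did not pass (2.10 ± 0.78 SE; adjusted p = 0.108), while it did with the tag as a replicate block (1.92; adjusted p = 0.00802). Pdpn was also highest in 3L (93.7 CPM) and passed with the block (1.05; adjusted p = 0.0264), against 1.13 ± 0.44 (SE; adjusted p = 0.117) without it. Flt4, the receptor of lymphatic growth factor, which some blood vessels also express, was the 1 called gene of 3 tested in this list (4.72 ± 0.95 SE; adjusted p = 0.0202) and was highest in 3R, with 3.39 (3L), 31.1 (3R), 18.4 (4R) and 4.75 (5L) CPM. Prox1, the defining lymphatic factor, was at 0 in all iron negative libraries and at most 0.353 CPM in the iron positive ones. All of these but Flt4 were named after their values were seen.

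Of 5 tested genes of the neutrophil list, whose cells roll on selectins, 2 were higher. S100a8 averaged 1.23 and 6.91 CPM (2.48 ± 0.52 SE; adjusted p = 0.0214) and S100a9 2.06 and 8.20 CPM (1.99 ± 0.43 SE; adjusted p = 0.0231) in the iron negative and iron positive libraries. Ly6g had 1 count in iron negative 5L and 0 in every other library, so it cannot separate the fractions. Retnlg had 1.72 ± 0.62 (SE; adjusted p = 0.0995) and passed with the tag as a replicate block (1.57; adjusted p = 0.0389), and Cxcr2 had 0.45 (adjusted p = 0.417). Csf3r, which holds most of this list's sum, averaged 72.0 and 65.0 CPM (-0.15 ± 0.07 SE; adjusted p = 0.207). Of 6 tested genes of the T cell list 1, Cd4, which macrophages can also express, was lower (-0.79 ± 0.14 SE; adjusted p = 0.0177), and it did not pass with macrophage scaling (-0.61; adjusted p = 0.0759). With the tag as a replicate block 2 genes of that list were lower. No B cell or NK cell gene passed: Cd79b had -0.54 (adjusted p = 0.168), Ms4a1 -0.28 (adjusted p = 0.733) and Klrb1c -0.77 (adjusted p = 0.24).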
